A study of Drosophila melanogaster with 8 samples.

Results

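The proteasome genes described here were the genes whose symbol in the probe-to-gene table begins with Prosalpha, Prosbeta, Rpn and a digit, or Rpt and a digit, counted on spots paired with a single gene. They were 38 of 10604 measured genes and lay on 41 spots. The RefSeq gene table of Release 6 lists 48 genes under such names, and its current symbols gave the same 38 members. Prosalpha1, Prosalpha1R, Prosbeta1, Prosbeta5R2, Prosbeta6, Rpn10, Rpn9, Rpt1, Rpt6 and Rpt6R were not analysed here. The rule calls a gene a paralog if its name ends in T, R, R1 or R2, which gave 11 paralogs and 27 other subunits. Prosalpha4T1 and Prosalpha4T2 end in T1 and T2 and are likewise named as copies of Prosalpha4, so 13 copies and 25 subunits that are no copy are also given.

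Each of the 8 spotted arrays set larval RNA against adult RNA of the wild-type Drosophila melanogaster strain Canton S in 2 colours, and the labels give the purpose as a measurement of technical error. Larvae and adults were both a mix of stages, with no ages or sexes in the labels, and neither carried a transgene or received a treatment according to them. The portions of a stage came from 1 homogenate and were processed apart, so the arrays are technical replicates and p-values measure technical spread alone. Larvae were in channel 1 on replicates 1, 3, 6 and 8, and adults on replicates 2, 4, 5 and 7.

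The proteasome is the protease that breaks down proteins tagged with ubiquitin. Its barrel-shaped core is built of alpha rings, which gate the entrance, and beta rings, which hold the proteolytic sites. The regulatory particle on top carries the Rpt ATPases, which unfold substrates and thread them into the core, and the Rpn subunits, which bind and remove ubiquitin and hold the particle together. In flies several subunits have duplicated copies, and some of these are known for expression in the male germ line. Prosalpha6T is known to replace Prosalpha6 in the proteasomes of developing sperm.

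The deposited log2 ratio of each spot was centred on its array's median over gene spots, and its sign was reversed where adults were in channel 1. Positive values of this turned ratio mean a larval excess with channel 1 as numerator and an adult excess with channel 2 as numerator. The labels do not give the numerator, and it was not inferred from the values of marker genes, so genes are given by side. Values are turned log2 ratios with the SD over the 8 arrays (n = 8) unless stated, and a gene was past the threshold at a limma adjusted p under 0.05 over all 10604 genes. The label "testis-specific" could not be checked on RNA of whole animals, in which fewer cells of a type and less RNA per cell cannot be told apart. No source used here says whether the probes tell a copy from its counterpart, so close copies have uncertain values.

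Of the 38 members, 25 were past the threshold on the positive side, 1 was past it on the negative side and 12 were not past it. Among all genes 29.2% were past it as positive and 27.9% as negative, 57.1% in all. The other subunits had 21 of 27 genes past it as positive and 0 as negative, and their median ratio was 0.55. The paralogs had 4 of 11 past it as positive, 1 as negative and a median ratio of -0.02. With Prosalpha4T1 and Prosalpha4T2 moved to the copies, the 25 subunits had 21 positive and 0 negative (median 0.60), and the 13 copies 4 positive and 1 negative (median -0.03). The median of all genes was -0.01. A positive ratio on all 8 arrays was found for 10 of the 25 subunits and 3 of the 13 copies, against 22.3% of all genes.

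The zero of the scale bears on these counts. As deposited, with no centring, the median of all genes was at -0.45, and 9.74% of genes were past the threshold as positive and 56.8% as negative. The 25 subunits then had 3 positive and 3 negative genes (median 0.16), and the 13 copies 2 and 8 (median -0.47). Centred on all spots, the median of all genes was -0.15, and of 10604 genes 2047 were past the threshold as positive and 3689 as negative. The subunits then had 15 positive and 0 negative (median 0.46) and the copies 3 and 2 (median -0.17). Sides below are therefore relative to the median gene spot, while differences between a copy and its counterpart do not depend on the centring.

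**Figure D1:**
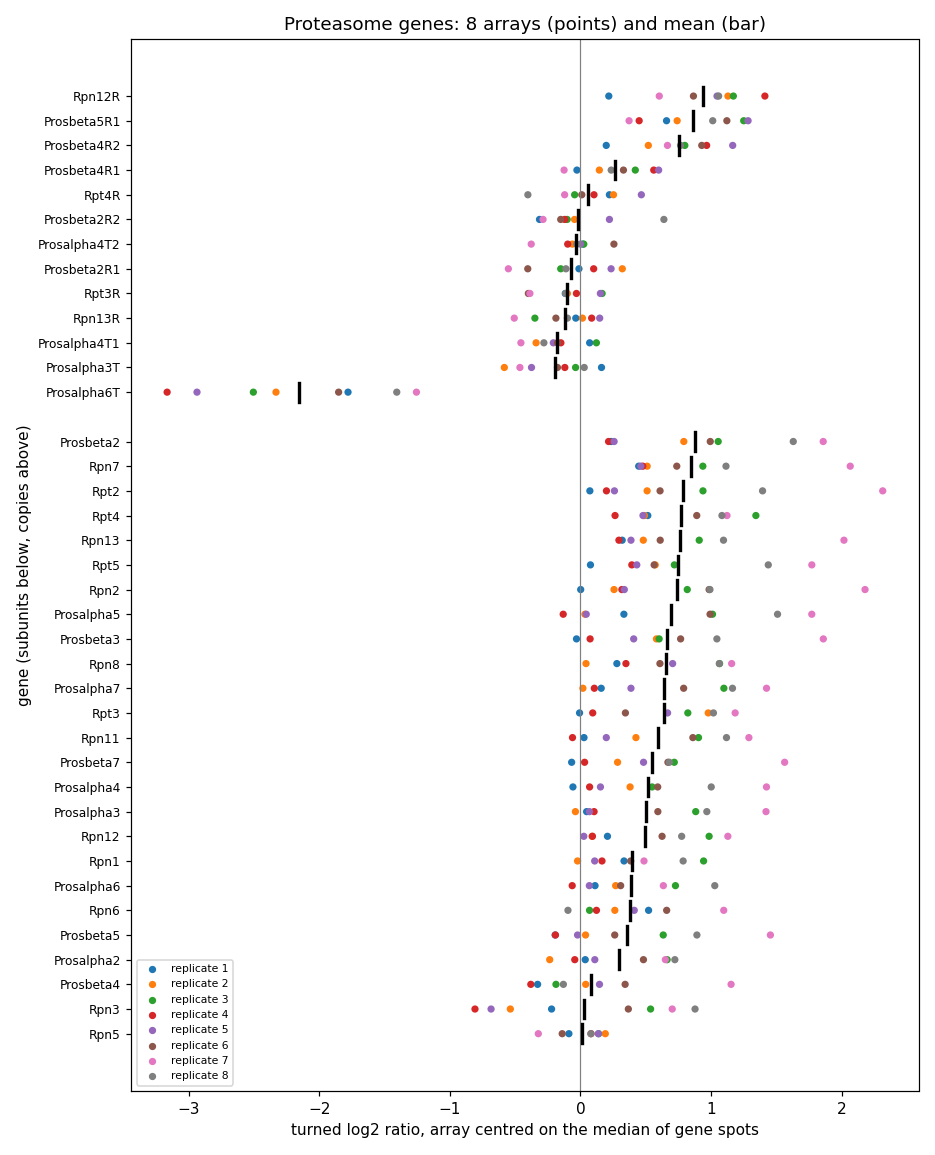
Turned log2 ratio of each of the 38 proteasome genes, with 1 point for each of 8 arrays, coloured by replicate, and a bar at the mean. Copies are above and subunits below. The means of the 25 subunits lie between 0.01 and 0.88, while those of the 13 copies range from -2.15 for Prosalpha6T to 0.94 for Rpn12R.

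In the alpha ring all 6 measured subunits that are no copy were on the positive side, with means from 0.30 for Prosalpha2 to 0.70 for Prosalpha5 and a median of 0.51. Prosalpha6, the counterpart of the sperm copy, ran from -0.06 over a median of 0.29 to 1.03, a mean of 0.39 ± 0.38 (adjusted p = 0.0154). Prosalpha4 ran from -0.06 over 0.46 to 1.42 (0.51 ± 0.50, adjusted p = 0.0152). Prosalpha3 ran from -0.04 over 0.35 to 1.42 (0.51 ± 0.54, adjusted p = 0.0202). Each of these counterparts was above 0 on 7 of 8 arrays. Their calls were close to the threshold. Prosalpha4 (adjusted p = 0.0505) and Prosalpha6 (0.0507) were not past it without replicate 8, nor was Prosalpha3 without replicate 3 (0.0601) or replicate 8 (0.0607). Prosalpha2, at an adjusted p of 0.0428, was not past it without any 1 of replicates 3 to 8 (0.0523 to 0.113). After a loess curve of the ratio against brightness on each array, Prosalpha6 was at 0.02 (adjusted p = 0.838) and Prosalpha2 at 0.16 (0.117). Centred on all spots, Prosalpha2 was at 0.16 (0.330), Prosalpha6 at 0.25 (0.131) and Prosalpha3 at 0.37 (0.0638). With arrays scaled to one spread, Prosalpha2 was at 0.23 (0.0701).

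Of the 4 measured copies of alpha subunits, 0 passed the threshold as positive and 1 as negative. Prosalpha6T stood at -1.78, -2.33, -2.50, -3.16, -2.94, -1.85, -1.26 and -1.41 on replicates 1 to 8. It was negative on every array, lowest on replicates 4 and 5 and highest on replicates 7 and 8, and its values did not overlap those of Prosalpha6. Its mean was -2.15 ± 0.70, a 4.45-fold difference (95% interval 3.33 to 5.94, limma adjusted p = 4.24e-06), on a spot at the 98.7th percentile of brightness. A difference of at least 2-fold past the threshold was found for 3.11% of all genes on the negative side. On the other side it was found for 6.24% of genes and 0 members.

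The other alpha copies lay near the median gene. Prosalpha3T, a copy of Prosalpha3, ran from -0.58 over -0.15 to 0.16 (-0.20 ± 0.26, adjusted p = 0.0648). Prosalpha4T1 ran from -0.46 over -0.19 to 0.12 (-0.18 ± 0.20, adjusted p = 0.0892), and Prosalpha4T2 from -0.38 over -0.01 to 0.26 (-0.03 ± 0.17, adjusted p = 0.746). These 3 genes had values on both sides of 0. Prosalpha3T passed the threshold on the negative side with arrays scaled to one spread (-0.20, adjusted p = 0.0425), centred on all spots (-0.33, 0.0342), as deposited (-0.63, 0.00301) and without replicate 4 (-0.24, 0.0466). Its spot was at the 9.19th percentile of brightness.

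In the beta ring 3 of 5 subunits that are no copy and 3 of 5 copies were on the positive side, and 0 of either on the negative. Prosbeta2, the subunit with trypsin-like activity, had the highest mean of the 25 subunits. It ran from 0.22 over 0.89 to 1.86 (0.88 ± 0.63, adjusted p = 0.00233) and was positive on all 8 arrays. Its copies Prosbeta2R1 (-0.55 over -0.06 to 0.32, mean -0.07 ± 0.30, adjusted p = 0.583) and Prosbeta2R2 (-0.31 over -0.11 to 0.64, mean -0.02 ± 0.31, adjusted p = 0.893) scattered around 0.

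For Prosbeta4 and Prosbeta5 the copies had the higher means. Prosbeta5, the subunit with chymotrypsin-like activity, ran from -0.19 over 0.15 to 1.45 (0.36 ± 0.59) and was not past the threshold (adjusted p = 0.105). Its copy Prosbeta5R1 ran from 0.37 over 0.88 to 1.28 (0.86 ± 0.36, adjusted p = 8.6e-05) and was positive on all 8 arrays. Prosbeta4, a beta subunit without a proteolytic site, ran from -0.38 over -0.05 to 1.15 (0.08 ± 0.50, adjusted p = 0.656), on a spot at the 22.4th percentile of brightness. Its copy Prosbeta4R2 ran from 0.20 over 0.78 to 1.17 (0.75 ± 0.30, adjusted p = 0.000148), again positive on all 8 arrays. Prosbeta4R1 ran from -0.13 over 0.28 to 0.60 (0.27 ± 0.26, adjusted p = 0.0414), and it was not past the threshold without any 1 of replicates 2, 3, 4, 5, 6 and 8 (0.0543 to 0.128) or centred on all spots (0.13, adjusted p = 0.458). Prosbeta4R1 and Prosbeta4R2 lie on chromosome arm 2L with 1 protein-coding gene between them in the RefSeq annotation. The remaining beta subunits, Prosbeta3 (0.66) and Prosbeta7 (0.55), were both on the positive side.

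Among the regulatory ATPases all 4 measured subunits that are no copy were on the positive side, with a median of 0.76. Rpt2 ran from 0.07 over 0.56 to 2.31 (0.79 ± 0.75, adjusted p = 0.0103). Rpt4 ran from 0.26 over 0.70 to 1.34 (0.77 ± 0.39, adjusted p = 0.000230), and Rpt5 from 0.08 over 0.57 to 1.77 (0.75 ± 0.57, adjusted p = 0.00372). These 3 genes were positive on all 8 arrays. Rpt3 ran from -0.01 over 0.74 to 1.18 (0.64 ± 0.45, adjusted p = 0.00275). The 2 copies were not past the threshold. Rpt3R ran from -0.40 over -0.11 to 0.17 (-0.10 ± 0.21, adjusted p = 0.354), and Rpt4R from -0.40 over 0.06 to 0.47 (0.06 ± 0.26, adjusted p = 0.610).

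Of the 10 regulatory non-ATPase subunits that are no copy, 8 passed the threshold as positive and 0 as negative (median 0.54). Rpn7, a subunit of the lid, ran from 0.45 over 0.62 to 2.07 (0.84 ± 0.55, adjusted p = 0.00155). Rpn13, a ubiquitin receptor, ran from 0.29 over 0.55 to 2.02 (0.76 ± 0.58, adjusted p = 0.00363). Both were positive on all 8 arrays, with their highest value on replicate 7. Rpn12, a lid subunit, ran from 0.03 over 0.42 to 1.13 (0.49 ± 0.44, adjusted p = 0.00900). It was not past the threshold after the loess curve (0.14, adjusted p = 0.114) or centred on all spots (0.35, 0.0516). Rpn11 (0.60), the deubiquitinase of the lid, its lid partner Rpn8 (0.66), the scaffold subunits Rpn1 (0.40) and Rpn2 (0.74), and Rpn6 (0.38) were also on the positive side. Rpn6, on a spot at the 4.15th percentile of brightness, was not past the threshold without replicate 1 (adjusted p = 0.0548) or replicate 6 (0.0692). Centred on all spots, neither Rpn6 (0.24, adjusted p = 0.130) nor Rpn1 (0.26, 0.112) was past it.

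The lid subunits Rpn5 and Rpn3 had the smallest means. Rpn5 ran from -0.32 over 0.08 to 0.19 (0.01 ± 0.18, adjusted p = 0.932), the smallest SD of the 25 subunits. Rpn3 ran from -0.81 over 0.07 to 0.88 (0.03 ± 0.67, adjusted p = 0.894). It was above 0 on the 4 arrays of replicates 3, 6, 7 and 8 and below 0 on the other four. After the loess curve, Rpn3 was on the negative side at -0.43 (adjusted p = 0.000198), on a spot at the 99.2nd percentile of brightness.

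Of the 2 measured copies of non-ATPase subunits, 1 was on the positive side. Rpn12R ran from 0.22 over 1.05 to 1.41 (0.94 ± 0.37, adjusted p = 7.77e-05), a 1.92-fold difference (95% interval 1.59 to 2.30). It had the highest mean of the 38 members and was positive on all 8 arrays. Rpn13R ran from -0.51 over -0.07 to 0.15 (-0.12 ± 0.22, adjusted p = 0.303). Rpn12R and Prosbeta2 lie on chromosome arm 3L with 3 protein-coding genes between them.

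Each of the 13 measured copies had its counterpart on the same arrays, and the copy was set against it within each array. Prosalpha4, Prosbeta2 and Prosbeta4 were each the counterpart of more than 1 copy, so the 13 pairs are not independent. The difference between the copy's and the counterpart's turned ratio was tested with a two-sided exact permutation of the 4 against 4 orientations. That test has 70 assignments and a smallest p of 0.0286, and p-values were adjusted over the 13 pairs. The copy was below its counterpart and past the threshold in 9 pairs, above it and past the threshold in 1, and not past it in 3. No share over other gene pairs stands beside this count. In the limma fit, a different test, 57.1% of single genes were past the threshold. The median ratio was -0.03 for the 13 copies, -0.01 for all genes and 0.60 for the 25 subunits. A gene at the median of all genes would therefore also lie below most subunits, so the count is not a trait shown to be particular to copies. All 10 pairs past the threshold had an adjusted p of 0.0371, with an unadjusted p at the smallest value the design allows.

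The difference was widest for Prosalpha6T, at -2.54 ± 0.54 against Prosalpha6, from -3.23 to -1.89 over the arrays. Against Prosbeta2, Prosbeta2R1 stood at -0.95 ± 0.87 and Prosbeta2R2 at -0.90 ± 0.64. Rpn13R stood at -0.88 ± 0.78 against Rpn13. Copies of the ATPases were also lower, Rpt3R at -0.74 ± 0.51 against Rpt3 and Rpt4R at -0.71 ± 0.60 against Rpt4. In these 6 pairs the copy was below its counterpart on 8 of 8 arrays. Prosalpha3T (-0.70 ± 0.60), Prosalpha4T1 (-0.69 ± 0.64) and Prosalpha4T2 (-0.55 ± 0.60) were below theirs on 7 of 8 arrays, with replicate 1 on the other side in each.

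Prosbeta4R2 was the pair past the threshold above 0, at 0.67 ± 0.55 over Prosbeta4. It was higher on 7 of 8 arrays, with -0.49 on replicate 7, and by this test its call was lost with any 1 array left out. Prosbeta5R1 was above Prosbeta5 by 0.50 ± 0.72 (exact permutation, adjusted p = 0.155) and Rpn12R above Rpn12 by 0.45 ± 0.62 (adjusted p = 0.155), both with 7 of 8 arrays above 0 and replicate 7 below. Prosbeta4R1 differed from Prosbeta4 by 0.19 ± 0.66 (exact permutation, adjusted p = 0.486).

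**Figure D2:**
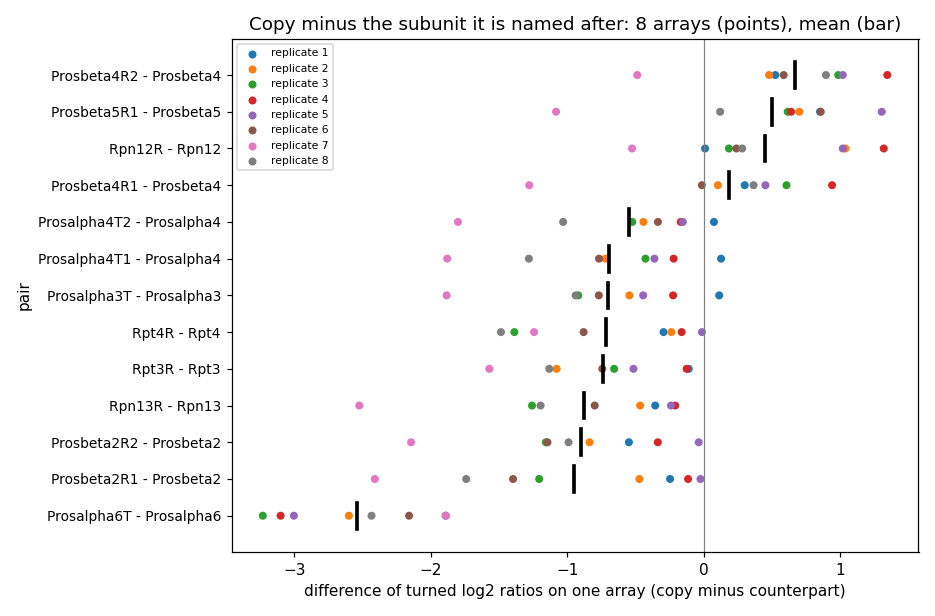
Turned log2 ratio of the copy minus that of its counterpart for 13 pairs, with 1 point for each of 8 arrays and the mean of each pair marked. Prosalpha6T lies between -3.23 and -1.89 on all arrays, and the pairs of Prosbeta4R1, Prosbeta4R2, Prosbeta5R1 and Rpn12R have means above 0.

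At least 8 of the 13 pairs had to reach the smallest p of 0.0286 for an adjusted p under 0.05, and with 1 array left out the smallest p was the same. Without replicate 1, 9 pairs reached it and were past the threshold, with Prosbeta4R2 lost. Without any 1 of replicates 2 to 8, 4 to 7 pairs reached it and 0 were past the threshold (lowest adjusted p 0.0531 to 0.0825). The 9 negative mean differences stayed below 0 with any 1 array left out. A two-sided exact sign-flip permutation of the 8 differences, with 256 assignments, put 10 pairs past the threshold. With 1 array left out it gave 9 to 13 pairs. Prosbeta4R2 was the pair lost where 9 remained, which was without any 1 of replicates 1, 3, 4, 5, 6 and 8. The 13 came without replicate 7, where Prosbeta4R1, Prosbeta5R1 and Rpn12R also passed, each above its counterpart.

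3 copies had 2 spots each, and their spots did not match. For Rpt4R the brighter spot was at -0.54 ± 0.39 (limma over spots, adjusted p = 0.00437) and negative on all 8 arrays, while the dimmer was at 0.67 ± 0.38 (adjusted p = 0.000506) and positive on all 8. For Prosalpha4T1 the brighter spot was at -0.38 ± 0.26 (adjusted p = 0.00844) and the dimmer at 0.03 ± 0.28 (adjusted p = 0.799). For Prosalpha4T2 the brighter spot was at 0.22 ± 0.21 (adjusted p = 0.0641) and the dimmer at -0.29 ± 0.32 (adjusted p = 0.0290). The mean ratio near 0 of Rpt4R is therefore an average of spots on opposite sides. Against Rpt4, its brighter spot differed by -1.32 ± 0.70 and its dimmer spot by -0.11 ± 0.63 (exact permutation, p = 0.571). Against Prosalpha4, the spots of Prosalpha4T1 differed by -0.90 ± 0.76 and -0.48 ± 0.56, and those of Prosalpha4T2 by -0.29 ± 0.58 and -0.80 ± 0.69, in the order brighter and dimmer. With the spot of smallest residual SD in place of the mean of spots, 0 pairs were past the threshold, 7 of them at the smallest unadjusted p and the lowest adjusted p at 0.0531.

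**Figure D3:**
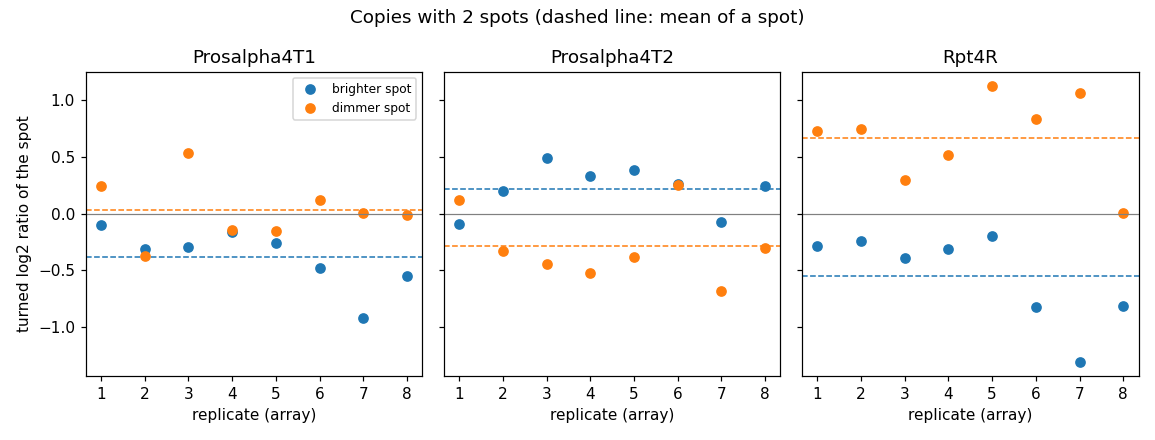
Turned log2 ratio of the brighter and the dimmer spot of Prosalpha4T1, Prosalpha4T2 and Rpt4R on replicates 1 to 8, with a dashed line at the mean of each spot. For Rpt4R the brighter spot is below 0 and the dimmer above 0 on all 8 arrays, with means of -0.54 and 0.67.

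The subunits tended to be high on the same arrays. The median over the 25 subunits was 0.07, 0.26, 0.82, 0.09, 0.26, 0.61, 1.42 and 1.02 on replicates 1 to 8, and that over the 13 copies 0.02, 0.02, 0.03, 0.09, 0.22, -0.15, -0.38 and -0.03. Subunits were thus highest on replicates 7 and 8 and lowest on replicates 1 and 4. Replicate 7 held the highest value of 19 of the 25 subunits and of 1 of the 13 copies, and the lowest value of 1 subunit and 6 copies. It held the highest value of 2999 and the lowest of 3028 of all 10604 genes. Replicate 7 had adults and replicate 8 larvae in channel 1, and 0 members passed the threshold for the dye column (lowest adjusted p = 0.914), the same count as over all 10604 genes.

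Other features of the arrays differed along with this. The median absolute deviation of gene spots was 0.321, 0.405, 0.424, 0.267, 0.254, 0.646, 0.539 and 0.552 on replicates 1 to 8. The flight muscle list, genes of the contractile apparatus, had medians of 0.81, 0.77, 1.43, 0.44, 0.41, 1.55, 2.05 and 1.64, and the list of gut digestive enzymes -2.99, -2.91, -3.34, -3.67, -3.67, -2.53, -1.94 and -2.20. The flight muscle median was highest on replicate 7, as was that of the subunits, and the gut median, like Prosalpha6T, was lowest on replicates 4 and 5 and highest on replicates 7 and 8. Their part in the proteasome values was not tested. After scaling arrays to one spread, the subunit medians were 0.09, 0.26, 0.79, 0.14, 0.41, 0.38, 1.07 and 0.75, and after the loess curve 0.13, 0.26, 0.51, 0.10, 0.20, 0.47, 1.07 and 0.72, so replicate 7 was highest under both.

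**Figure D4:**
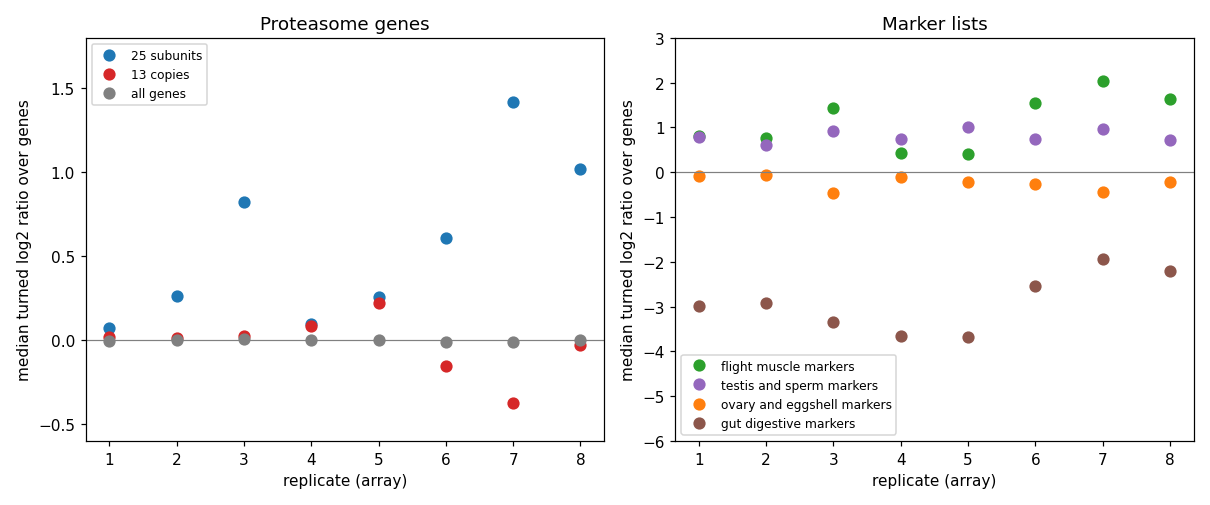
Median turned log2 ratio on replicates 1 to 8 of the 25 subunits, the 13 copies and all genes on the left, and of the marker lists on the right. The subunit median reaches 1.42 on replicate 7 where the median of the copies is -0.38, and the gut median lies between -3.67 and -1.94.

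The arrays differed more for the subunits than for most genes. Their median residual SD was 0.55, with 23 of 25 above the gene median of 0.30, and that of the copies was 0.28, with 6 of 13 above it. The median SD of the subunits was 0.52, 0.34 after the loess curve and 0.39 with arrays scaled. Subtracting from each gene, on each array, the median of the other subunits lowered the median SD of the subunits from 0.52 to 0.24, with a lower SD in 22 of 25. For the copies the same step raised it from 0.26 to 0.61, with a lower SD in 1 of 13, Prosalpha6T, from 0.70 to 0.51. The subunits lay on brighter spots than the copies, at median percentiles of 91.8 and 48.9.

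Genes around the proteasome were read from 2 lists. Of 17 proteasome accessory factors 16 were measured, and 7 of them passed the threshold as positive and 1 as negative (median 0.29). Over all genes the shares were 29.2% and 27.9%, and as deposited 9.74% and 56.8%. Sem1, a small subunit of the lid whose name lies outside the rule, was at -1.03 ± 0.41 and negative on all 8 arrays, on the opposite side from most of the lid subunits. The small Maf transcription factor gene maf-S was at 0.86 ± 0.29, TER94, the ATPase that extracts ubiquitylated proteins, at 0.84 ± 0.83 (mean of 2 spots), and PI31, which binds the proteasome, at 0.82 ± 0.48. As deposited, 3 of the 16 were positive and 4 negative (median -0.15), and TER94 was at 0.41 (adjusted p = 0.0558).

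Of 45 ubiquitin pathway genes 32 were measured, and 20 of them passed the threshold as positive and 5 as negative (median 0.41). Over all genes the shares were 29.2% and 27.9%, and as deposited 9.74% and 56.8%. The polyubiquitin gene Ubi-p63E was at 2.46 ± 0.63, a value that is uncertain because other genes carry the same ubiquitin repeat. SkpA, the adaptor of SCF ubiquitin ligases, was at 1.26 ± 0.68, their scaffold Cul1 at 1.20 ± 0.46 and the ubiquitin-conjugating enzyme gene vih at 1.17 ± 0.41. These 4 genes were positive on all 8 arrays. As deposited, 8 of the 32 were positive and 8 negative (median -0.02).

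Marker lists of the tissues in whole animals did not lie on one side. Over all genes 29.2% were past the threshold as positive and 27.9% as negative, and as deposited 9.74% and 56.8%. Of 45 testis and sperm genes 27 were measured, and 16 of them passed the threshold as positive and 6 as negative. The median of the 27 was 0.91, and values ran from -3.80 for w-cup to 3.54 for Mst98Cb. Apart from w-cup, the negative testis genes past the threshold lay between -0.51 and -0.24. Testis genes were thus more often past the threshold on the positive side. That side also held 21 of the 25 subunits and 4 of the 13 copies, the latter near the 29.2% of all genes. The part of testis RNA in these values was not tested. Of 28 ovary and eggshell genes 20 were measured (4 positive, 9 negative, median -0.22), of 12 flight muscle genes 10 (8 positive, 0 negative, median 1.14) and of 29 gut digestive genes 21 (0 positive, 20 negative, median -2.88). The largest absolute ratio was 2.52 for exu in the ovary list, 3.87 for TpnC4 in the flight muscle list and -4.23 for Jon25Bi in the gut list. As deposited, the positive and negative counts were 15 and 8 for the testis list (median 0.47) and 4 and 15 for the ovary list (median -0.66). They were 6 and 0 for the flight muscle list (median 0.70) and 0 and 21 for the gut list.

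**Figure D5:**
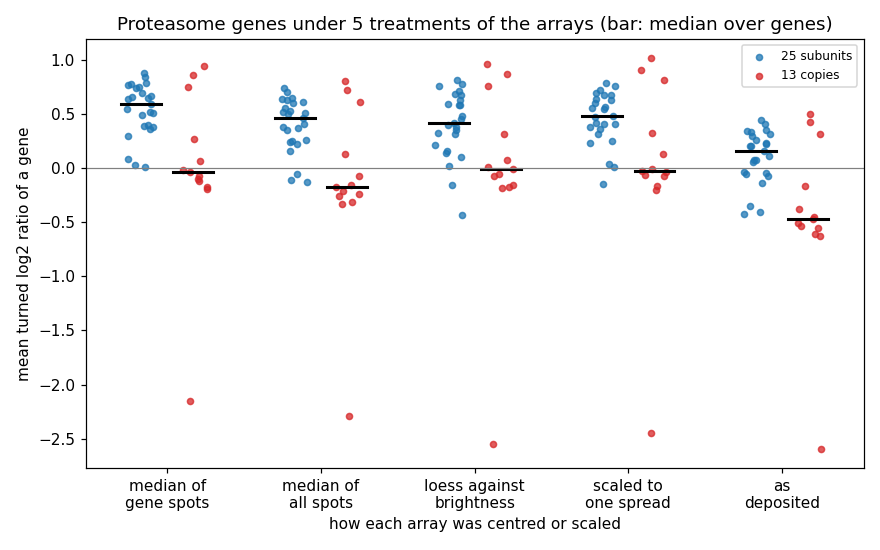
Mean turned log2 ratio of each proteasome gene (points) and the median over genes (bars) under 5 ways of centring or scaling the arrays. Without centring the median of the 25 subunits is 0.16 and that of the 13 copies -0.47, and the copies remain below the subunits in median under each setting drawn.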

How the data were processed

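Per the labels, RNA was extracted with TRIzol, selected for polyA on oligo-dT (another label field names total RNA), labelled by the amino-allyl method, scanned with GenePix and quantified with Spot. No source used here gives the dyes, background handling, filters, numerator or genome build. The deposited values are log2 ratios of the 2 channels, with no centring by the authors visible. The base was read from the values, all of which were log2 ratios of whole numbers. No spot intensity was used, so a brightness was taken as the mean log2 of these numbers, a lower bound.

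Of 20000 spots, 12246 had 1 gene, 86 several and 7668 none in the probe table. Of those with 1 gene, 11883 matched a current symbol in RefSeq and 363 kept the table's. Spots of a gene were averaged (1253 of 10604 genes had at least 2). The fit was limma 3.58.1 in R 4.3.3 (lmFit, eBayes) with a stage and a dye column over 8 arrays and all genes, with Benjamini-Hochberg adjustment at 0.05. Pairs were tested by exact permutation. On simulated data over 10604 genes, 200 of them changed, the fit called 65% of shifts of 0.5 (log2), 92% of shifts of 1.0 and 0.0865% of unchanged genes. In the arrays themselves 57.1% of genes were called, so these rates need not hold there. Tables were made with pandas 2.3.3 and numpy 2.4.6, and figures with matplotlib 3.10.9, under Python 3.11.15.

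The members, gene lists and tests were chosen with earlier results of these data known. Array values are given for every copy, its counterpart, the 6 other subunits with the largest absolute mean and the 2 with the smallest. Up to 4 genes with the largest ratio are named from each pathway list and up to 3 from a marker list. Alternatives were the centring, a loess curve (span 0.3), the scale of the arrays, the dye column, leaving out spots under the 25th percentile of brightness, the choice of spot, and each array left out. The loess curve for pairs, single spots for pairs and the sign-flip test with arrays left out were added after seeing the data. The number of arrays limits the precision.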

Additional observations from a re-analysis of the deposited data

Results flagged for a closer look

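Among 38 member ratios and 13 pair differences, 7 had 1 array far from the other seven (its gap to the nearest, over the whole range, above Dixon's critical value for 8 samples, which chance gives in about 1 of 20 such sets), and in all 7 that array was replicate 7. The ratio of Prosbeta4 was 1.15 there, with 0.34 the next highest. Rpn13 was at 2.02 (next 1.10), Rpn2 at 2.18 (next 0.99) and Rpn7 at 2.07 (next 1.11). The differences on that array were -1.28 for Prosbeta4R1 minus Prosbeta4 (next lowest -0.01), -0.49 for Prosbeta4R2 minus Prosbeta4 (next 0.48) and -2.52 for Rpn13R minus Rpn13 (next -1.26). The 7 are not independent, since 3 of the sets hold Prosbeta4 and 2 hold Rpn13. No outlier count over all genes stands beside them. Replicate 7 held the highest value of 2999 and the lowest of 3028 of all 10604 genes, so its extreme values were not particular to the members.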

How the results depend on the processing

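No paired analysis was possible because the 2 orientations share no replicate numbers, while copies and counterparts were set against each other within each array. The centring changed the most. As deposited, 5 members were positive and 11 negative, the median of members was 0.062 and that of paralogs -0.46, and the ratio changed sign for 10 members, Prosbeta5 (-0.077), Rpt4R (-0.38), Prosalpha2 (-0.14), Prosalpha6 (-0.051), Prosbeta4 (-0.35), Prosbeta4R1 (-0.17), Rpn1 (-0.038), Rpn3 (-0.41), Rpn5 (-0.43) and Rpn6 (-0.055). After the loess curve 3 members changed sign, with Rpn3 at -0.43, centred on all spots 4 did and with arrays scaled 1. Calls were lost by 20 members as deposited, 7 centred on all spots, 3 after the loess curve and 1 with arrays scaled. Negative members were 2 when centred on all spots, after the loess curve, with arrays scaled and without replicate 4. For pairs, 0 were past the threshold with the spot of smallest residual SD. With 1 array left out, positive members were 20 to 24, negative members 1 to 2, the median of members 0.35 to 0.58, that of paralogs -0.08 to 0.02, that of other subunits 0.38 to 0.64, genes called 5330 to 6253 and pairs past the threshold 0 to 9. Leaving out the dye column moved 0 of 38 member calls. Leaving out dim spots, under the 25th percentile of all spots, removed no member spot and so could not test the members. Low brightness limits Rpn6, Prosalpha3T and Prosbeta4, the 3 members under the 25th percentile of genes. It also limits the dimmer spots of Rpt4R and Prosalpha4T2, at a brightness of 8.42 and 8.82 against 9.20 for Prosbeta4.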
